A study of Tupaia belangeri with 6 samples.

Results

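Genes whose proteins take up, store, release and sense iron were followed in the prefrontal cortex (PFC) of the Chinese tree shrew: the ferritin chains FTH1 and FTL, transferrin (TF) and its receptor TFRC, the transporters SLC11A2 and SLC40A1, the ferroxidase ceruloplasmin (CP), heme oxygenase HMOX1, and the iron regulatory proteins ACO1 and IREB2. They were chosen for their known roles, and each was looked up by its exact gene name among the 95863 loci measured in every animal. Of the 10 genes, 9 were listed under their own name, 7 were expressed enough to be tested, FTH1 and FTL were listed at 0 in every animal, and TF was not listed. Ferritin was nevertheless among the most abundant messages of this tissue, through loci that the annotation names as gene-like copies ("li" and a number), which are described apart. The 7 tested genes spanned median levels from 71.6 TPM for TFRC to 6.53 TPM for CP, and 0 of the 7 passed the test for a difference between the sexes.

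RNA was sequenced from the PFC of 3 female (numbered 1, 3 and 4) and 3 male (numbered 1, 4 and 5) adult animals, with no treatment, and polyadenylated RNA was selected before library construction. According to the sample list of the study the males were all older than the females, so sex and age cannot be told apart here. Levels are TPM (transcript abundance scaled for transcript length and for the size of the library), which sum to between 950532 and 971492 per animal. TPM keeps no read depth, and no interval for counting error is given. The share of TPM on loci without an assigned strand ran from 2.3% to 3.33% in females and from 2.67% to 7.88% in males. Defining markers of neurons, astrocytes, microglia and endothelium were present in every animal, with NEFL of the neuron list at 0 in all 6. In bulk tissue, fewer cells of a type and less RNA per cell cannot be told apart.

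Iron enters brain cells mainly as transferrin-bound iron through the transferrin receptor, crosses the endosomal membrane through SLC11A2, and is stored inside ferritin shells built from heavy and light chains. SLC40A1 (ferroportin) is the only known cellular iron exporter, and ceruloplasmin oxidizes the iron it releases. The iron regulatory proteins ACO1 and IREB2 bind iron-responsive elements in the messages of ferritin, TFRC and SLC40A1 when iron is scarce, and oligodendrocytes are known as the cells that hold much of the stainable iron of the brain.

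Nearly all TPM under ferritin names lay on 2 gene-like copies. The locus named FTH1 (chromosome 1, 152569767 to 152570291 in TS_3.0, plus strand), which would encode the heavy chain with its ferroxidase centre, spans 525 bp and was listed at 0 TPM in all 6 animals. The locus named FTL (chromosome 1, 79757488 to 79799386, plus strand), for the light chain, was also listed at 0 in all 6. An entry at 0 does not show that the chains were absent, since 17 gene-like copies were listed as well, 15 of FTH1 and 2 of FTL.

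FTH1li4 (chromosome 17, 57244995 to 57247793, plus strand) had 8449, 7829 and 8779 TPM in females 1, 3 and 4 and 10398, 7159 and 6391 TPM in males 1, 4 and 5. Both the highest and the lowest value were in males, and the females lay between them. The locus ranked between 2 and 5 of 95863 loci in each animal and made up 98.48% to 99.2% of all TPM under FTH1 names. FTLli2 (chromosome 27, 24136632 to 24138902, minus strand) had 2996, 2544 and 3384 (females 1, 3 and 4) and 2074, 2641 and 2039 TPM (males 1, 4 and 5), which ranked between 13 and 28. Male 4 lay above female 3, so the sexes overlapped. FTLli2 held all of the TPM under FTL names, and all ferritin loci together took 0.886% to 1.32% of the TPM of an animal.

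The remaining ferritin copies were far lower. FTH1li5 (chromosome 18, 26693107 to 26774779) had 101, 105 and 121 TPM in the females, against 106, 103 and 51.7 TPM in the males, so that male 5 alone stood below the others. It had 13.0 to 16.8 TPM per unit of coverage (mean read depth over the locus), against 0.65 to 0.836 for FTH1li4 and FTLli2, so its TPM and its coverage place it differently. FTH1li10 ranged from 0 to 9.43 TPM, FTH1li14 from 0 to 3.43 TPM and FTH1li7 from 0 to 1.66 TPM. Male 5 was at 0 for all of these. Of the 17 copies, 8 were listed at 0 in every animal and 7 passed the filter on low values. Reads of near-identical copies can be assigned to one another, so the split among copies is uncertain.

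**Figure D1:**
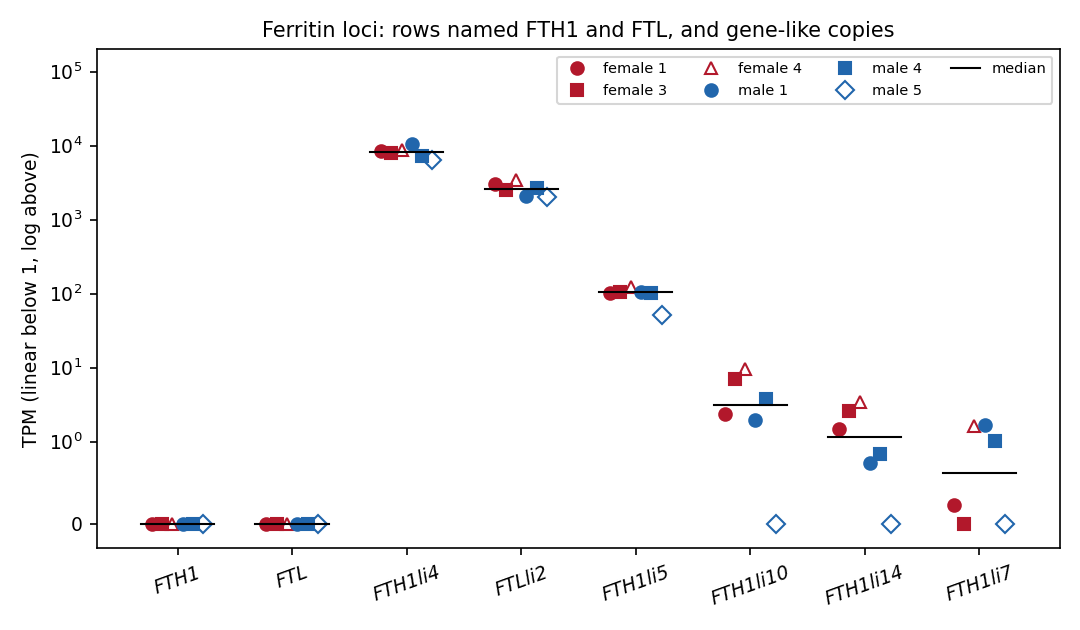
TPM (linear below 1 and logarithmic above) of the loci named FTH1 and FTL and of the 6 gene-like copies that reached 1 TPM in 3 animals. Each point is an animal (red female, blue male) and the line is the median of 6. FTH1 and FTL sit at 0, whereas FTH1li4 and FTLli2 have medians of 8139 and 2593 TPM.

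The position of both copies was compared with the gene order of a second assembly. In the deposited tables, FTH1li4 lies between INCENP, a subunit of the chromosomal passenger complex, and the neighbours RAB3IL1 and FADS3. In the RefSeq annotation of the tree shrew assembly TupChi_1.0, the gene named FTH1 lies between the same genes, with BEST1 beside it. FTLli2 lies between GYS1, the muscle glycogen synthase, and NUCB1. In RefSeq these genes enclose BAX, DHDH and genes without a symbol, and none of them is named FTL. The names of neighbours are a description of position, and no sequence was compared.

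**Figure D2:**
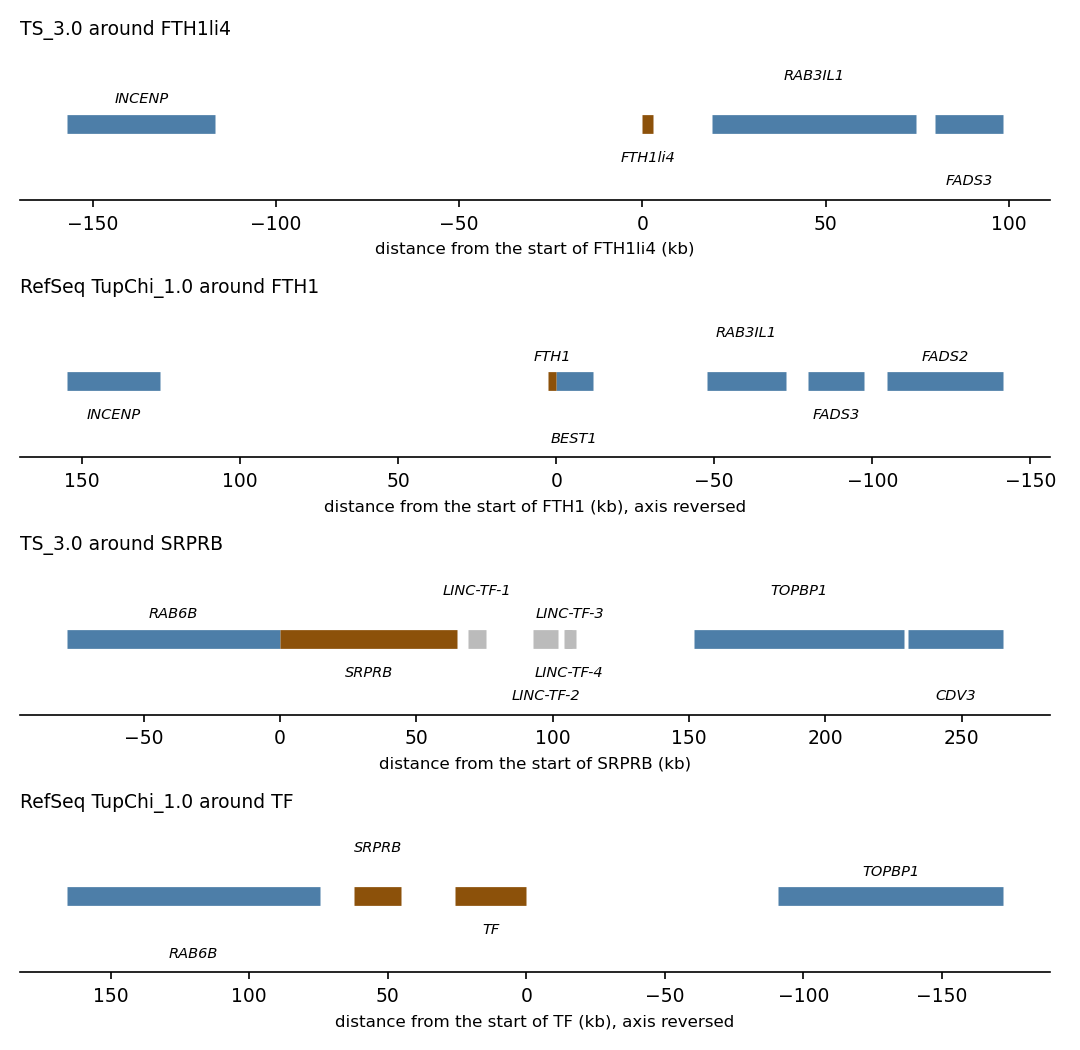
Named loci around FTH1li4 and around SRPRB in the deposited tables (TS_3.0), and around FTH1 and TF in RefSeq (TupChi_1.0), drawn to scale in kb from the start of the anchor gene, with the RefSeq axes reversed. INCENP, RAB3IL1 and FADS3 surround FTH1li4 as they surround FTH1 in RefSeq, and the locus named SRPRB spans 65.0 kb in the tables against 16.8 kb in RefSeq.

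TPM under heavy chain names exceeded TPM under light chain names in all 6 animals. Because both own-name loci were at 0, the ratio was formed with the copies added, which were assigned to a chain by name alone. Females 1, 3 and 4 had ratios of 2.86, 3.12 and 2.63, and males 1, 4 and 5 had ratios of 5.07, 2.75 and 3.16. Male 1 stood apart, with the highest FTH1li4 and a low FTLli2, and the other 5 animals lay close together. The log2 ratio differed by −0.30 between females and males (two-sided exact permutation test, n = 3 and 3, p = 0.4, where the smallest possible p is 0.1), and by −0.042 without male 1.

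Transferrin, the plasma iron carrier that oligodendrocytes also make, was not listed by name in any animal. RefSeq places TF between TOPBP1 and SRPRB, the beta subunit of the signal recognition particle receptor. In the deposited tables, the space between the loci named SRPRB and TOPBP1 held 10 loci, 0 of them with a gene name and 4 with identifiers of the form LINC-TF, and the highest median among them was 0.0471 TPM, with a highest single value of 7.24 TPM. The locus named SRPRB (chromosome 24, 39541174 to 39606204, minus strand) spans 65.0 kb, whereas RefSeq gives SRPRB 16.8 kb, TF 25.8 kb and the stretch that covers both 62.0 kb. That locus had 693, 589 and 485 TPM in females 1, 3 and 4 and 561, 441 and 500.4 TPM in males 1, 4 and 5, which ranked between 185 and 308 of all loci. The sexes overlapped (log2 difference 0.22, SE 0.219, limma adjusted p = 0.934). Whether its reads come from TF was not tested, so no level is given for transferrin.

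Among the genes of uptake, TFRC had the highest TPM of the 7 tested genes in every animal. TFRC (chromosome 1, 16811478 to 16847240, plus strand), the receptor that internalizes iron-loaded transferrin, had 62.4, 78.7 and 48.8 TPM in females 1, 3 and 4 and 64.4, 79.4 and 89.3 TPM in males 1, 4 and 5. Female 4 was lowest and male 5 highest, with a fold of 1.83 between them, and female 3 lay within the male range. SLC11A2 (chromosome 6, 49930212 to 49987309, plus strand), the divalent metal transporter DMT1, had 31.4, 40.1 and 19 (females 1, 3 and 4) and 30.4, 27.6 and 39.0 TPM (males 1, 4 and 5). Here the females gave both extremes, and all 3 males lay between them.

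The exporter SLC40A1 had a lower TPM than TFRC in every animal, whereas by coverage it was above TFRC in female 4 (30.4 against 28.4). SLC40A1 (chromosome 1, 171732278 to 171803430, minus strand) had 23.0, 32.0 and 23.0 TPM in the females, against 22.8, 22.6 and 34.8 TPM in the males. It varied least of the 7 genes, by 1.54-fold from lowest to highest animal, with 4 animals close to 23.0 TPM and female 3 and male 5 above. CP (chromosome 24, 24534069 to 24648372, plus strand) had 8.1, 5.77 and 8.41 (females 1, 3 and 4) and 7.3, 4.48 and 2.76 TPM (males 1, 4 and 5), a 3.05-fold range. Males 4 and 5 lay below every female and male 1 lay among the females. The CP locus overlaps HPS3 on the opposite strand by 12988 bp, and HPS3 had 11.4 to 17.6 TPM.

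HMOX1 (chromosome 6, 112309749 to 112320963, minus strand), the inducible enzyme that frees iron from heme, had 7.05, 7.59 and 3.12 TPM in the females, against 7.69, 7.49 and 13.0 TPM in the males. Its 4.16-fold range rested on 2 animals, female 4 at the bottom and male 5 at the top, while the other 4 lay between 7.05 and 7.69 TPM. The low value of female 4 was less pronounced in coverage: it had 0.69 TPM per unit of coverage against 1.61 to 1.98 in the others, and with coverage scaled to the library the range was 1.88-fold, below those of CP (2.96), IREB2 (2.78) and ACO1 (2.44).

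The regulators ACO1 and IREB2 had medians of 10.5 and 11.9 TPM. ACO1 (chromosome 2, 126141986 to 126217604, minus strand), the cytosolic aconitase that doubles as iron regulatory protein 1, had 11.4, 16.2 and 5.68 (females 1, 3 and 4) and 5.87, 12.8 and 9.62 TPM (males 1, 4 and 5). IREB2 (chromosome 22, 34235115 to 34293812, minus strand), iron regulatory protein 2, which has no aconitase activity, had 12.4, 16.2 and 6.45 TPM in the females, against 7.42, 11.4 and 18.0 TPM in the males. Female 4 and male 1 were the lowest animals for both genes. The ratio of ACO1 to IREB2 was 0.913, 0.998 and 0.88 in the females, against 0.791, 1.13 and 0.534 in the males, so that the females lay within the male range. Its log2 value differed by 0.25 between the sexes (two-sided exact permutation test, n = 3 and 3, p = 0.6), and by −0.023 without male 5.

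Both regulators share their loci with genes of the opposite strand, and the library protocol names no step that keeps the strand. ACO1 overlaps TOPORS by 11579 bp, and TOPORS had 9.34 to 35.4 TPM. IREB2 overlaps an unnamed locus by 13051 bp, which had 113, 109 and 135 (females 1, 3 and 4) and 141, 8.71 and 8.15 TPM (males 1, 4 and 5). The part of these loci in the values of ACO1 and IREB2 was not tested.

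**Figure D3:**
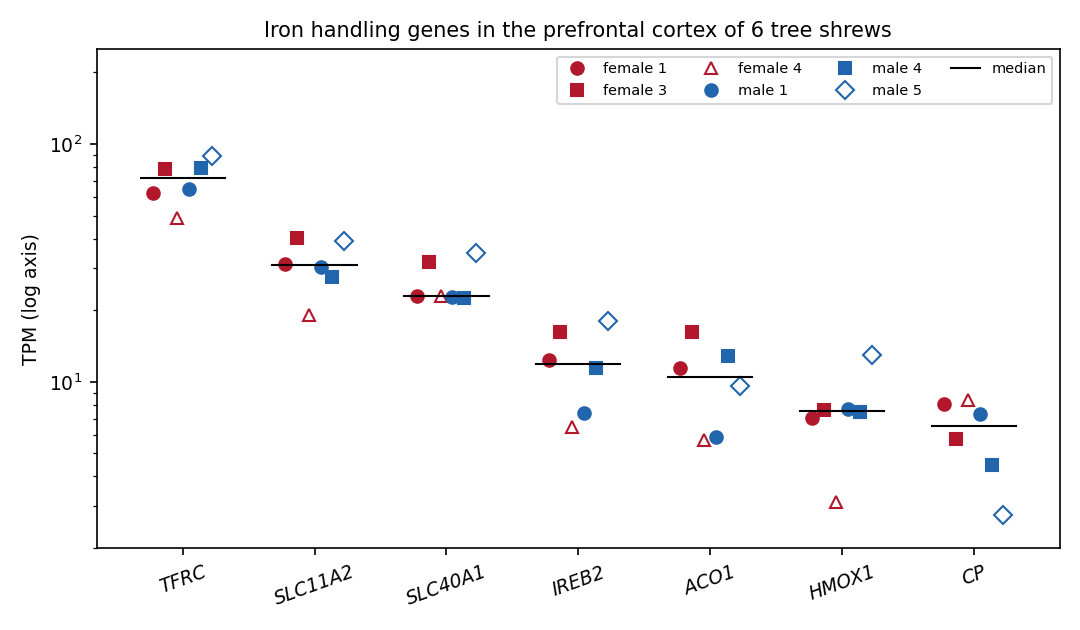
TPM on a log axis of the 7 tested iron handling genes, ordered by median (line). Each point is an animal (red female, blue male, with female 4 and male 5 as open symbols). TFRC lies above all others, and the sexes overlap for each gene.

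Ordered by median TPM, TFRC (71.6) was followed by SLC11A2 (30.9), SLC40A1 (23.0), IREB2 (11.9), ACO1 (10.5), HMOX1 (7.54) and CP (6.53). Neighbours in this order were compared within each animal by a two-sided exact sign-flip permutation test over the 6 animals, with adjustment over the 6 pairs. TFRC exceeded SLC11A2 in 6 of 6 animals by a mean log2 ratio of 1.19 (adjusted p = 0.0936, exact test, the smallest value possible for 2 such pairs among 6). SLC40A1 likewise exceeded IREB2 in 6 of 6 animals, by 1.21 (adjusted p = 0.0936, exact test). The other 4 neighbouring pairs had log2 ratios between 0.23 and 0.43 and adjusted p from 0.188 to 0.594 in the same exact test, with 4 or 5 of 6 animals in the direction of the order, so those neighbours could not be ordered beyond their spread.

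The order depended on the unit, most of all for SLC11A2. By median coverage, which is the mean depth over the locus, the order was TFRC (34.6), SLC40A1 (29.0), IREB2 (14.9), ACO1 (8.79), SLC11A2 (5.53), HMOX1 (4.4) and CP (4.05), so that 3 of the 7 genes kept their rank. SLC11A2 had 4.5 to 6.75 TPM per unit of coverage, against 0.675 to 2.21 for the other 6 genes.

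No iron handling gene passed the test for a sex difference. Differences are female minus male means of log2(TPM + 1), on which the change of low genes appears smaller than it is, and were tested with limma over the 28740 genes that reached 0.1 TPM in 3 animals. At an adjusted p under 0.1, 5 of these genes were called (0.0174%), and 0 of the 7 iron handling genes. At an unadjusted p under 0.05 there were 1439 genes (5.01%) and again 0 of the 7. Across all tested genes, 4.82% had every female above every male and 4.99% had every male above every female, whereas the sexes overlapped for all 7 iron handling genes. Of the 7 differences 2 were positive and 5 negative, with a median of −0.07 against −0.032 over all tested genes.

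HMOX1 differed by −0.62 (SE 0.406, limma adjusted p = 0.925), with a 95% interval from −1.55 to 0.31. The difference was −0.28 without female 4 and −0.29 with coverage scaled to the library. CP differed in the opposite direction, by 0.59 (SE 0.410, limma adjusted p = 0.925) and an interval from −0.35 to 1.52. TFRC differed by −0.31 (SE 0.220, limma adjusted p = 0.925), with an interval from −0.81 to 0.20. The differences of SLC11A2, SLC40A1, ACO1 and IREB2 lay between −0.14 and 0.17, with limma adjusted p from 0.971 to 0.997. These intervals are wide, and with 3 animals of each sex a difference of the size seen for SLC11A2 or IREB2 was not detectable.

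The sexes overlapped for 6 of the 7 tested ferritin copies, and 6 of the 7 had a positive difference, with a median of 0.39 against −0.032 over all tested genes. That median is the value of FTH1li5, which was 0.06 without male 5, and FTH1li4 was at −0.05 without male 5. Reads of these copies can be assigned to one another, so the 7 are not independent. FTH1li4 differed by 0.10 (SE 0.550, limma adjusted p = 0.993) and FTLli2 by 0.40 (SE 0.334, limma adjusted p = 0.925). FTH1li14 had 1.48, 2.59 and 3.43 TPM in the females, against 0.74, 0.854 and 0 TPM in the males, with no overlap (log2 difference 1.20, SE 0.501, limma adjusted p = 0.925). Its 95% interval ran from 0.06 to 2.35, and it was 1 of 7 tested copies, where 4.82% of all tested genes had every female above every male. The difference did not pass the threshold across all genes. Of the copies too low to test, FTH1li9 was at or under 0.145 TPM in the females and at 0 in the males.

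**Figure D4:**
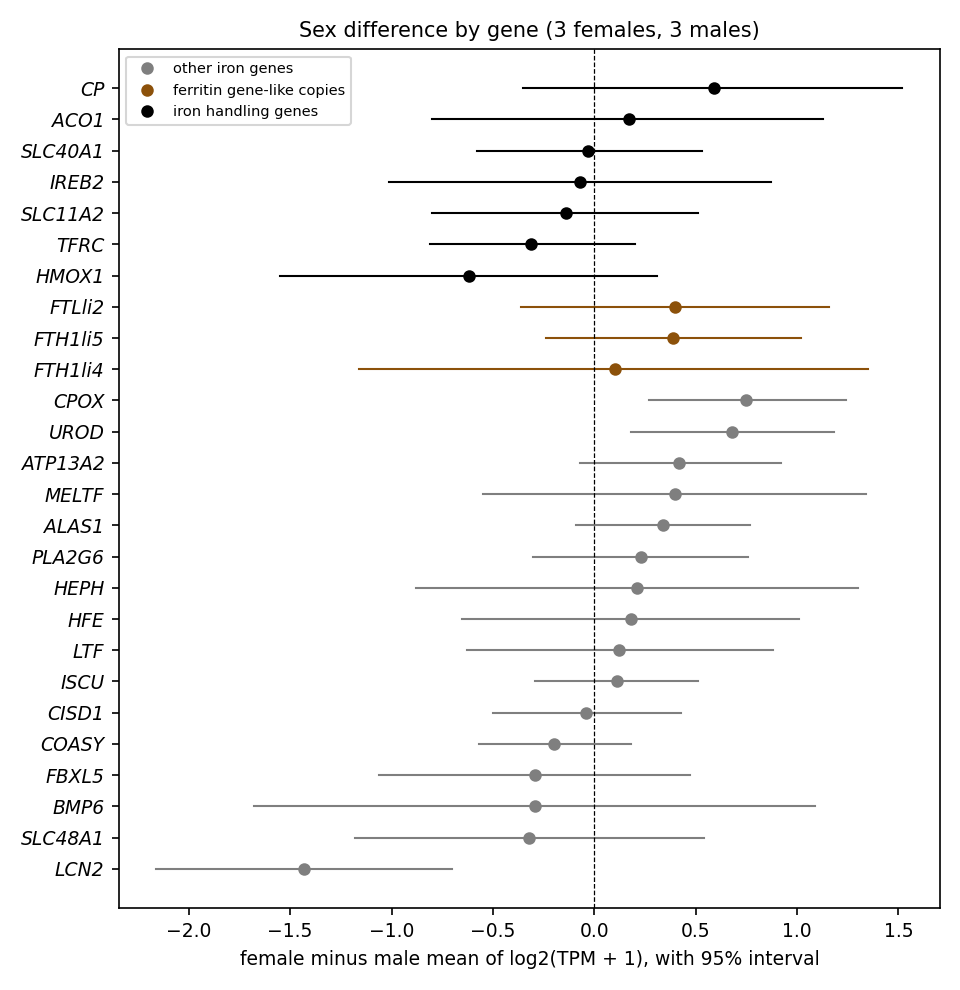
Female minus male mean of log2(TPM + 1) with its 95% interval from limma (3 females, 3 males) for the 7 tested iron handling genes (black), the 3 ferritin copies above 10 TPM (brown) and other iron genes named by a fixed rule (grey). The intervals of all black and brown genes cross 0, and those of CPOX, UROD and LCN2 do not.

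Marker levels of several cell types are given beside these values, and their counts without overlap are to be read against the 4.82% of all tested genes with every female above every male. The summed TPM of the 5 listed oligodendrocyte markers was 534 to 748 in females and 152 to 426 in males (two-sided exact permutation test of the mean log2 level, p = 0.2). By mean log2 level the sexes overlapped, with male 1 at 6.05 above female 4 at 5.98. MAG was the single marker whose sexes did not overlap, and 0 of the 5 were at 0. MBPli1, a copy of the myelin gene MBP that was noticed after its values were seen, had 2777, 2574 and 2205 (females 1, 3 and 4) and 1192, 726 and 255 TPM (males 1, 4 and 5). Its difference did not pass the threshold (log2 difference 2.05, limma adjusted p = 0.925). The locus named MBP had 7.07 to 13.7 TPM with overlapping sexes. The summed TPM of the 5 listed blood markers was 1288 to 2553 for the females against 68.9 to 112 for the males. Of the 5, 3 did not overlap between the sexes. Most of these sums came from HBQ1 and HBG, while AHSP overlapped (6.2 to 16.5 TPM) and SLC4A1 was at most 0.077 TPM. The hemoglobin genes HBQ1 and HBG were 2 of the 5 genes called among all those tested (log2 differences 4.52 and 4.35, limma adjusted p = 0.00976 for both). The summed astrocyte, microglia, endothelium and neuron markers overlapped between the sexes, although 2 of the 5 endothelial markers, CLDN5 and FLT1, were higher in every female. The other endothelial markers overlapped, with log2 differences of −0.20 for PECAM1, −0.12 for CDH5 and 0.37 for VWF. The choroid plexus, a known source of transferrin, had marker sums of 6.39 to 11.2 TPM in the female and 3.23 to 12.3 TPM in the male animals and OTX2 was listed at 0. Of its 5 listed markers, AQP1 was higher in every female (log2 difference 0.95), and FOLR1 had a difference of −1.72 with overlapping sexes. The part of these cells in the iron values was not tested.

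The extremes of the 7 genes fell repeatedly on the same animals. Female 4 was the lowest of the 6 animals for 5 genes (TFRC, SLC11A2, HMOX1, ACO1 and IREB2), and male 5 was the highest for 4 (TFRC, SLC40A1, HMOX1 and IREB2). These shares are read against 7377 tested genes whose median lay in the same range, of which female 4 was lowest in 33.3% and male 5 highest in 21.4%. CP ran the other way, with male 5 lowest and female 4 highest, and so did FTLli2 and FTH1li5. FTH1li4 was also lowest in male 5, and highest in male 1. With coverage scaled to the library, female 4 was the lowest animal for 6 of the 7 genes, against 35.8% of the 7377 genes, and male 5 again the highest for 4.

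**Figure D5:**
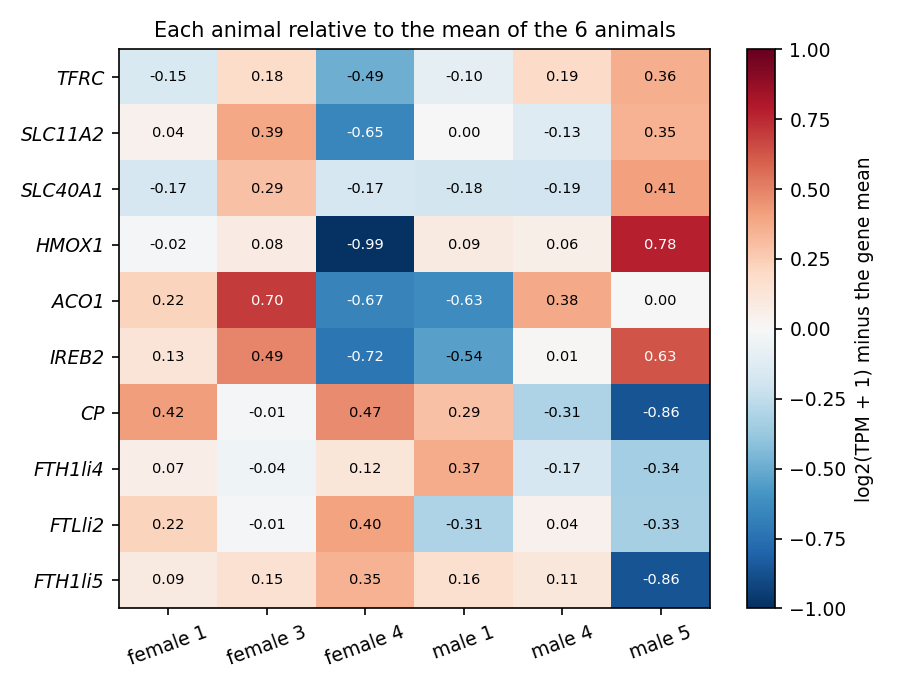
Log2(TPM + 1) of each animal minus the mean of the 6 animals, for the 7 tested iron handling genes and 3 ferritin copies. Female 4 ranges from −0.99 for HMOX1 to 0.47 for CP, and male 5 from −0.86 for CP and FTH1li5 to 0.78 for HMOX1.

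A wider list of 53 genes of iron biology, grouped by role, was read in the same way. Of these 39 were listed and 32 tested, 0 were called by limma at an adjusted p under 0.1, and 3 (CPOX, UROD and LCN2) had an unadjusted p under 0.05, where the background is 5.01%. With coverage scaled to the library, 1 of the 32 (LCN2) had such a p. The sexes did not overlap for 4 of the 32, 2 with the females above and 2 with the males above (4.82% and 4.99% of all tested genes), and the median difference was 0.04.

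Of the 9 tested heme genes, 5 had positive and 4 negative differences, with a median of 0.04, and 2 (CPOX and UROD) had an unadjusted p under 0.05, against 5.01% of all tested genes. CPOX, the mitochondrial coproporphyrinogen oxidase, had 21.9, 20.4 and 24.2 TPM in the females, against 14.2, 11.6 and 12.5 TPM in the males (log2 difference 0.75, SE 0.213, limma adjusted p = 0.925). UROD, the enzyme of the preceding step, had 92.3, 91.3 and 79.9 (females 1, 3 and 4) and 55.8, 70.7 and 40.5 TPM (males 1, 4 and 5) (0.68, SE 0.220, limma adjusted p = 0.925). Every female lay above every male for both, but neither difference passed the threshold across all genes. With coverage scaled to the library the differences were 0.17 for CPOX and 0.42 for UROD. ALAS1, the rate-limiting enzyme of heme synthesis outside red cells, had 70.1 to 124 TPM and the heme transporter SLC48A1 25.9 to 78.1 TPM, and the sexes overlapped. The blood markers, whose cells make heme for hemoglobin, also had higher sums in every female, mostly through HBQ1 and HBG. Their part in the heme values was not tested.

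Among the uptake genes LCN2, which carries iron bound to siderophores, had the largest difference of the 32 tested genes of the wider list. It had 14.6, 6.52 and 8.13 TPM in the females, against 28.2, 31.8 and 20.8 TPM in the males, with every male above every female (log2 difference −1.43, SE 0.321, limma adjusted p = 0.925). The melanotransferrin gene MELTF had 4.66 to 16.5 TPM and the lactoferrin gene LTF 6.24 to 13.0 TPM, both with overlapping sexes, and LCN2 was the single gene of 6 tested with a p under 0.05, where 5.01% of all tested genes had such a p and 4.99% had every male above every female. For storage, 1 of 5 genes was tested: FBXL5, the ubiquitin ligase subunit that senses iron and marks IREB2 for degradation, had 48.1, 58.4 and 21.3 (females 1, 3 and 4) and 47.6, 47.5 and 49.6 TPM (males 1, 4 and 5). Female 4 again stood below the other 5 animals, but with 0.961 TPM per unit of coverage against 1.69 to 2.01 in the others, and with coverage scaled to the library the sexes differed by −0.07 in place of −0.29 (log2). PCBP1, an iron chaperone for ferritin, was listed at 0 in every animal, and the mitochondrial ferritin FTMT was at 0 in all animals but female 4, with 0.2 TPM.

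Among genes of mitochondrial iron handling, the scaffold protein ISCU, on which iron-sulfur clusters are built, had 124 to 172 TPM and CISD1 of the outer membrane 124 to 189 TPM. The sexes overlapped for all 9 tested genes of this role. The genes of systemic iron control had lower levels under their own names. HFE had 4.76 to 9.85 TPM, BMP6 0.604 to 4.37 TPM and the ferroxidase HEPH 0.665 to 2.13 TPM, with 0 of 3 tested at a p under 0.05. Their gene-like copies were higher for HEPH and BMP6, with medians of 4.72 TPM for HEPHli1 and 4.59 TPM for BMP6li1 against 1.26 and 2.08 TPM. Among genes whose mutation leads to iron accumulation in the brain, ATP13A2 had 89.1 to 166 TPM, PLA2G6 22.8 to 38.9 TPM and COASY 36.4 to 45.7 TPM. COASY was higher in every male than in every female (log2 difference −0.20, limma adjusted p = 0.925), the single gene of 4 tested without overlap, where 4.99% of all tested genes had every male above every female.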

How the data were processed

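The authors selected polyadenylated RNA, sequenced paired reads of 150 bp, mapped them to TS_3.0 with HISAT2 (2.2.1 in the submitters' processing notes) and measured a merged annotation in each animal with StringTie (2.2.1). The deposited tables give TPM, FPKM and coverage signal (mean depth, not scaled to the library) per locus. They hold no counts, so DESeq2, which the authors used, was not run, and TPM carries no read depth.

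TPM was summed over rows of one gene ID and chromosome. Log2(TPM + 1) was tested with limma 3.58.1 (R 4.3.3, mean-variance trend, no covariate) for genes that reached 0.1 TPM in 3 animals, with Benjamini-Hochberg adjustment within 27996 autosomal and 744 X-linked genes and a threshold of 0.1. The male-only segments of chromosomes X and 26 and unplaced contigs were left out. The limma step was tested on simulated data. Ratios were compared by exact permutation in Python 3.11.15 (scipy 1.17.1). FTH1 and FTL gave no ratio from their own loci, so copies were added.

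The members and lists were chosen with earlier results of these data known. Named genes were all members, ferritin copies that reached 1 TPM in 3 animals, and per role of the wider list the 3 with the highest median and those with an unadjusted p under 0.05 and separated sexes, of which 1 gene is not reported here. MBPli1, neighbouring loci, copies of other genes, FA2H and ALAD were named after their values were seen. P-values measure the spread between animals. Alternatives were other scalings, FPKM, a filter at 1 TPM or none, pseudocounts of 0.1 and 0.01, loci apart, no trend, joint adjustment, the animal number as a block and each animal left out. Coverage in place of TPM, and FTH1li4 over FTLli2 alone, were added after seeing the data.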

Additional observations from a re-analysis of the deposited data

How the results depend on the processing

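No iron handling gene and no gene of the wider list was called under any alternative, and the lowest adjusted p of an iron handling gene was 0.675. The animal numbers 1 and 4 occur in both sexes but did not pair the animals (correlations of deviations 0.00098 and 0.0383). With the number as a replicate block, 0 iron handling genes and 0 of the wider list were called. The log2 differences of SLC40A1, ACO1 and LTF were then 0.02, −0.10 and −0.19, in place of −0.03, 0.17 and 0.12. Numbers 3 and 5 occur in a single sex each, so this fit rests the sex difference on the animals numbered 1 and 4 alone. FPKM gave SLC40A1 0.01, quantile normalization gave BMP6 0.02, and coverage scaled to the library, chosen after seeing the data, gave ACO1 −0.13, LTF −0.07 and HFE −0.07, each opposite in sign to the main value. The cause of the changes with FPKM, quantile normalization and coverage was not tested. By coverage 3 of 7 ranks were kept. FPKM kept all 7, but TPM rescales FPKM by a single factor per animal. The order within an animal therefore cannot differ between these units.

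Leaving out each animal in turn moved the difference across 0 for SLC11A2 (−0.37 to 0.14), SLC40A1 (−0.18 to 0.17), ACO1 (−0.14 to 0.54), IREB2 (−0.35 to 0.28), FBXL5 (−0.57 to 0.13), MELTF (−0.09 to 0.73), LTF (−0.10 to 0.38), HFE (−0.05 to 0.40), BMP6 (−0.84 to 0.03), SLC48A1 (−0.63 to 0.15), CISD1 (−0.14 to 0.17), FTH1li4 (−0.05 to 0.30) and FTH1li7 (−0.66 to 0.05). The log2 ratio of ACO1 to IREB2 ranged from −0.023 to 0.52 and that of heavy to light ferritin from −0.48 to −0.042, and without male 5 the order kept 5 of 7 ranks. TFRC (−0.47 to −0.13), HMOX1 (−0.81 to −0.28) and CP (0.31 to 0.88) kept their direction under every alternative. FTH1li4 over FTLli2 alone gave −0.31 for the ratio of the chains.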

Other observations

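Other iron genes were also carried by a gene-like copy rather than by their own name, a pattern that was noticed after the values were seen. Of 48 listed symbols of the iron lists, 4 had an own locus under 1 TPM and a copy with a median over 10 TPM, namely FTH1, FTL, HMOX2 and BLVRB. HMOX2, the constitutive heme oxygenase, was at most 0.211 TPM, while HMOX2li1 had 44.7 to 90.1 TPM. BLVRB, a biliverdin reductase, was listed at 0, while BLVRBli1 had 37.4 to 104 TPM. PCBP2, an iron chaperone, was not listed by name, and PCBP2li1 had 261 to 390.2 TPM. The hemopexin gene HPX had a median of 1.75 TPM, and HPXli1 had 16.3 to 29.5 TPM. The SLC40A1 copy was at or under 0.126 TPM in each animal.

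FA2H, which makes hydroxylated lipids of myelin and whose loss leads to iron accumulation in the brain, lies on an unplaced contig and was not tested. It had 50.6, 47.6 and 28.7 TPM in females 1, 3 and 4 and 31.6, 10.1 and 6.02 TPM in males 1, 4 and 5, so that male 1 lay above female 4. ALAD, the second enzyme of heme synthesis, had 9.33 TPM in female 4 and 47.9 to 64.7 TPM in the other 5 animals. Its coverage, not scaled to the library, was 7.8 in female 4 and 11.8 to 17.5 in the others. Female 4 had the largest summed coverage of the 6 animals (899259), so these values understate its gap. ALAD had 1.2 TPM per unit of coverage in female 4, against 3.49 to 4.11 in the others. The gap was thus narrower in coverage than in TPM.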
